A study of Mus musculus with 4 samples.

Results

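The genes described here encode proteoglycans, hyaluronan enzymes and receptors, and matricellular proteins. They are 38 genes out of 54532 gene IDs in the count table, taken by symbol from a fixed list, and each had at least 20 counts summed over the 4 libraries. By role, 4 belong to the basement membrane, 7 are small leucine-rich proteoglycans, 4 are lecticans, 12 are cell surface proteoglycans, 5 make or bind hyaluronan, and 6 are matricellular or other.

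RNA came from microdissected cranial neural tubes of mouse embryos at embryonic day 10.5, with 1 embryo and 1 library per sample and 2 samples per group. DCKO embryos (DCKO 1 and DCKO 2) were Lats1 flox/flox and Lats2 flox/flox and carried E2f1 Tg(Wnt1-cre)2Sor/+, a Cre transgene under the Wnt1 promoter, which is active in the dorsal neural tube and midbrain. Control embryos (Control 1 and Control 2) lacked that transgene, and whether they carried floxed alleles is not stated. An effect of the transgene (Cre itself, or the E2f1 allele in its name) and loss of Lats1 and Lats2 thus cannot be told apart. The comparison asks how the RNA of these tissues differs when the Hippo pathway kinases LATS1 and LATS2 are targeted in Wnt1-cre cells. The p-values measure only the spread between 2 embryos per group. In bulk RNA, fewer cells of a type and less RNA per cell cannot be told apart.

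A proteoglycan is a core protein that carries chains of sulfated sugars, either heparan sulfate or chondroitin and dermatan sulfate. Heparan sulfate on glypicans, syndecans and perlecan binds Wnt, fibroblast growth factor, bone morphogenetic protein and Hedgehog ligands. Chondroitin sulfate on lecticans, together with hyaluronan and link proteins, forms the hydrated matrix through which neural crest cells move around the neural tube. Basement membranes outline the neural tube and its vessels. LATS kinases hold back YAP and TAZ, which act at DNA through TEAD factors.

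Library totals were 45102704 and 41798361 counts in DCKO and 55137810 and 45190611 in Control, and 4 gene models of the ribosomal RNA cluster took 24.7% and 30.3% of them in DCKO and 13.2% and 12.4% in Control. Levels below are depth-scaled counts (CPM) after TMM scaling of the totals, a scaling that sets most genes level between libraries, and 3 counts in a library correspond to 0.0479 to 0.0812 CPM. Tests are edgeR's quasi-likelihood test with Benjamini-Hochberg adjustment over 19207 genes, two-sided, and "higher" or "lower" is written of genes with an adjusted p under 0.05. Whole-gene Lats1 stood at 30.0 and 29.7 CPM in DCKO, against 44.2 and 65.6 in Control, and did not pass (edgeR adjusted p = 0.0538). Lats2 stood at 21.2 and 35.3 CPM in DCKO, against 26.7 and 13.3 in Control, and did not pass either (edgeR adjusted p = 0.426). The deleted exons are not stated and a whole-gene count includes exons outside them, so these values do not check the deletion.

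Most of the genes that changed were higher in DCKO. Of the 37 members that passed the filter on low counts, 17 were higher in DCKO, 3 were lower and 17 did not pass the test. That is 54.1% called, 45.9% higher and 8.11% lower, against 17%, 8.93% and 8.11% of all tested genes. All 20 called members differed by at least 2-fold. Among them, Bcan (lower) passed the filter on low counts only through Control, and Gpc5 (higher) only through DCKO. The median log2 fold change was 1.52 over the 37 tested members and 0.03 over all tested genes. At an unadjusted edgeR p under 0.05 there were 27, against 35.9% of all tested genes. The groups did not overlap in 32 members, against 66.4% of all tested genes. Both DCKO libraries lay above both Control libraries in 25 (33.6% of all tested genes) and below them in 7 (32.9%), and the groups overlapped in 5. Aspn was the member not tested. With library totals in place of TMM the split was 15 higher and 5 lower, and over all tested genes 1219 higher and 3744 lower in place of 1716 and 1558, with the median of all genes shifted by -0.35 on the log2 scale.

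The result leaned on having both Control libraries. Calls over all tested genes also fell when either Control library was left out, so this was not particular to the members. Of the 20 called members, 6 were still called without Control 1 and 6 without Control 2, and all of these were higher in DCKO. All 20 kept the sign of their fold change without DCKO 1 and without DCKO 2. Calls over all tested genes rose in both of these fits, so a member that passed there passed where more genes do. Hspg2, Nid2, Gpc3, Gpc4 and Hapln1 were called whichever library was left out. In such a fit the library left alone in its group is assumed to vary as the other group does.

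**Figure D1:**
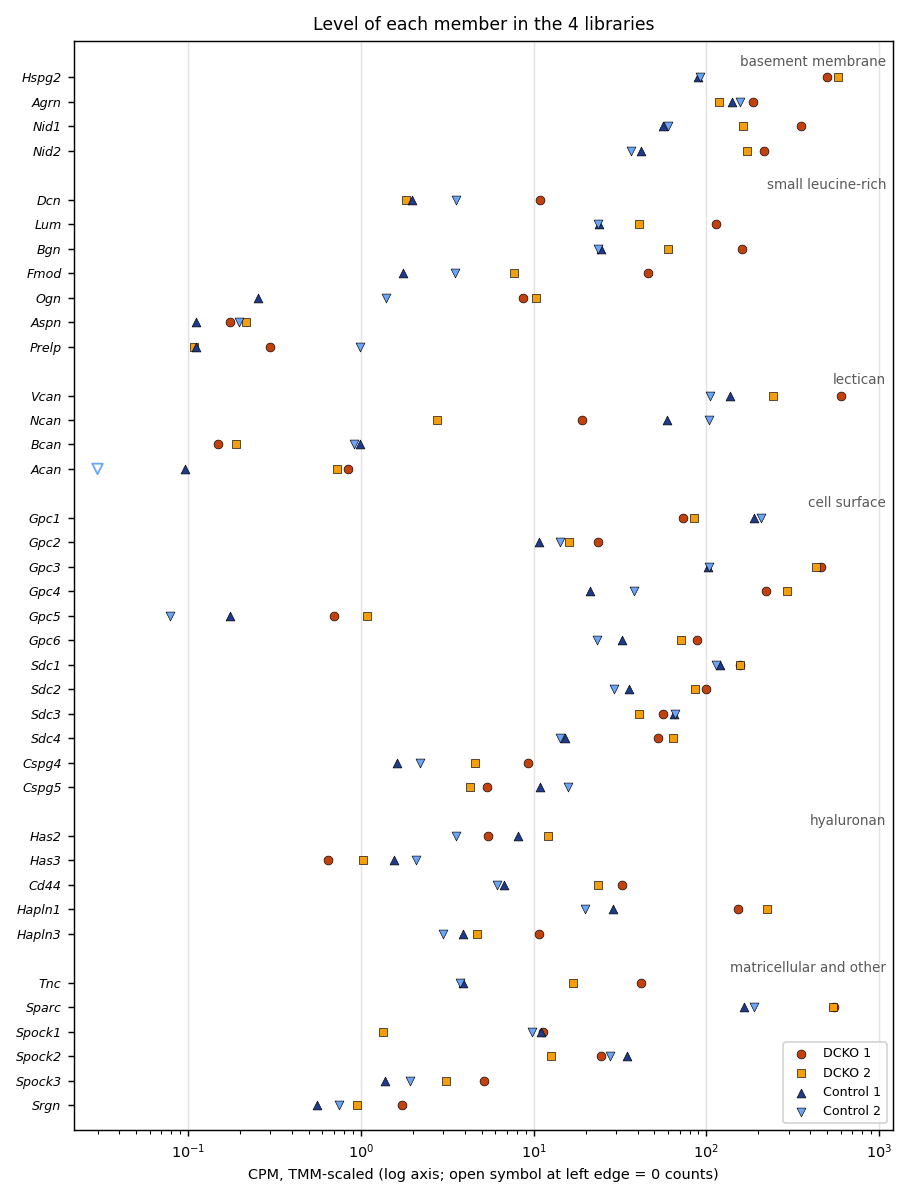
Level of each of the 38 genes in the 4 libraries, in TMM-scaled CPM on a log axis, by class; the open triangle at the left edge marks 0 counts. The DCKO symbols lie to the right of both Control symbols for Hspg2, Nid1, Nid2, Gpc3, Gpc4 and Sparc, and to their left for Gpc1, Ncan, Bcan and Cspg5.

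To show the DNA just upstream of genes that differ between the groups, up to 250 bases before the RefSeq start (GRCm38.p6) are given for 4 of them, 5′ to 3′ on each gene's own strand and up to the first GENCODE exon. They are a glypican, a lectican, a basement membrane gene and a small leucine-rich gene, all higher in DCKO. Capitals mark the core letters bound by TEAD factors, GGAATG, or CATTCC where they read on the other strand. The windows are chrX:52613975-52614224 (minus strand) for Gpc3, chr13:89742513-89742762 (minus strand) for Vcan, chr13:13437352-13437550 (plus strand) for Nid1 and chr13:49607765-49608014 (plus strand) for Ogn.
Gpc3: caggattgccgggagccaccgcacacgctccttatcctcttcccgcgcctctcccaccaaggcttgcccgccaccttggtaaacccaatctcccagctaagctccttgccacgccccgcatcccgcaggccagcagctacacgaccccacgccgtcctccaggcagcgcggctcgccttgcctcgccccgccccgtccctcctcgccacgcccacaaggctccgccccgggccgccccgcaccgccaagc
Vcan: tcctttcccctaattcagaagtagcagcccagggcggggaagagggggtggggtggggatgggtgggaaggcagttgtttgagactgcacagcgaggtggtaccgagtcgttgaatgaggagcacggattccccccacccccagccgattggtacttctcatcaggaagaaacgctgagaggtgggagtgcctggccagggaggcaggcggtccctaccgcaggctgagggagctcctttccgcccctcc
Nid1: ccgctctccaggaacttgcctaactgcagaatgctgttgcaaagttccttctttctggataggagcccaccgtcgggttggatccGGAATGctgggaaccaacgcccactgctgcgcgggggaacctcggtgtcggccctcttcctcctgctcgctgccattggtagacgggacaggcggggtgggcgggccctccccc
Ogn: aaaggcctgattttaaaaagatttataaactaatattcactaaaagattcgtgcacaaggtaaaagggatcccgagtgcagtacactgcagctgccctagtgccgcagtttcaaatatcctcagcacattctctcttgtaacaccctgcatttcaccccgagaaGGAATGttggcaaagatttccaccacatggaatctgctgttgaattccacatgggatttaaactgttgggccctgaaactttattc

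The match starts 165 bases before the RefSeq start in Nid1 and 86 before it in Ogn, and the Gpc3 and Vcan windows hold none. RefSeq windows were matched for 29 of the 38 members, 33 windows in all. Searching both strands, 4 of these windows held the letters in their 250 upstream bases. The others were those of Acan, with the match 12 bases before the start, and of Gpc4, with the match 131 bases before it and inside the first GENCODE exon. That is 12.1% of the members' windows, against 12.6% of 32851 windows of all genes in the table. Among members the share with a match was close to that among all genes. The windows differ in base composition, with 71.6% G and C in the full Gpc3 window, 64.4% in that of Nid1 and 42.0% in that of Ogn.

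Of the 4 basement membrane genes, 3 were higher in DCKO, by 4.44-fold to 5.93-fold. Hspg2 encodes perlecan, the large heparan sulfate proteoglycan of basement membranes (chr4:137468769-137570630, plus strand, GRCm38). It stood at 496 and 579 CPM in DCKO, against 89.8 and 91.6 in Control, a log2 fold change of 2.57 ± 0.17 (SE; edgeR adjusted p = 0.00585). The gap between the groups was far wider than the spread within either of them. Nid2, which encodes a nidogen that links laminin to collagen IV, stood at 215 and 171 CPM in DCKO and at 41.7 and 36.8 in Control (log2 fold change 2.30 ± 0.19, edgeR adjusted p = 0.00714). Its relative Nid1 stood at 353 and 163 CPM in DCKO, against 56.1 and 60.2 in Control (log2 fold change 2.15 ± 0.38, edgeR adjusted p = 0.0231). The Control values of Nid1 were close together, whereas DCKO 1 was well above DCKO 2. Agrn, which encodes agrin, a heparan sulfate proteoglycan of basement membranes and synapses, stood at 186 and 119 CPM in DCKO and 141 and 157 in Control (edgeR adjusted p = 0.936). Its DCKO values lay on either side of the Control values, and the sign of its fold change turned with the scaling. Without Control 1 or Control 2, Nid1 did not pass (edgeR adjusted p = 0.109 and 0.107), and without DCKO 1 its log2 fold change was 1.48. An antisense gene model over Nid1 had 180 and 73 counts in DCKO and 0 in Control. Rtraf on the opposite strand overlaps Nid2 and had 6475 and 5484 counts in DCKO and 7777 and 6593 in Control. Nid2 itself had 8596 and 6311 counts in DCKO and 2613 and 1864 in Control. Whether strand was used in counting is not stated.

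Small leucine-rich proteoglycans bind collagen fibrils and set their spacing, and 2 of 6 tested were higher. Bgn encodes biglycan and lies on the X chromosome (chrX:73483602-73495933, plus strand). Its level was 160 and 59.6 CPM in DCKO, against 24.7 and 23.7 in Control, a log2 fold change of 2.19 ± 0.47 (SE; edgeR adjusted p = 0.0344). Ogn, which encodes osteoglycin, had 350 and 382 counts in DCKO, against 16 and 71 in Control (log2 fold change 3.54 ± 0.78, edgeR adjusted p = 0.0371). DCKO 1 and DCKO 2 were alike for Ogn, whereas for Bgn DCKO 1 was well above DCKO 2. Neither gene passed without Control 1 (edgeR adjusted p = 0.142 for Bgn and 0.0605 for Ogn). Without Control 2, Bgn did not pass (edgeR adjusted p = 0.151) and Ogn passed at a log2 fold change of 5.18; without DCKO 1 the Bgn value was 1.30 and passed.

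Lum, Fmod and Dcn were also highest in DCKO 1. Lum, which encodes the corneal and skin proteoglycan lumican, had 114 and 40.8 CPM in DCKO and 24.1 and 23.8 in Control (log2 fold change 1.69 ± 0.47, edgeR adjusted p = 0.0627). Fmod, which encodes fibromodulin, had 45.7 and 7.71 CPM in DCKO and 1.76 and 3.52 in Control (log2 fold change 3.34 ± 0.89, edgeR adjusted p = 0.0563). Both DCKO libraries lay above both Control libraries for these genes, but neither passed with all 4 libraries. Without DCKO 2, the library with the lower values, both passed (log2 fold changes of 2.24 for Lum and 4.12 for Fmod, edgeR adjusted p = 0.00141 and 0.00246). Without DCKO 1, Lum passed at 0.77 (edgeR adjusted p = 0.0268) and Fmod at 1.55 did not (0.0535). Dcn, which encodes decorin, had 10.9 and 1.84 CPM in DCKO and 1.98 and 3.54 in Control, and its groups overlapped (edgeR adjusted p = 0.342; 0.0166 without DCKO 2, with a log2 fold change of 1.98, and -0.59 without DCKO 1). Prelp was barely detected, with 12 and 4 counts in DCKO and 7 and 50 in Control. Aspn had 7 and 8 counts in DCKO and 7 and 10 in Control.

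Among the lecticans, the widely expressed Vcan was called higher and the nervous system gene Bcan lower, while Ncan and Acan did not pass. Vcan encodes versican, a hyaluronan-binding chondroitin sulfate proteoglycan of loose mesenchyme (chr13:89655312-89742509, minus strand). It stood at 602 and 242 CPM in DCKO, against 137 and 105 in Control, a log2 fold change of 1.80 ± 0.45 (SE; edgeR adjusted p = 0.0483). Bcan, which encodes brevican, had 6 and 7 counts in DCKO and 62 and 46 in Control. This corresponds to 0.150 and 0.189 CPM in DCKO, against 0.990 and 0.909 in Control (log2 fold change -2.47 ± 0.54, edgeR adjusted p = 0.0360). Bcan was thus a low-level gene that passed the count filter only through its Control libraries. Ncan, which encodes neurocan, had 19.1 and 2.76 CPM in DCKO and 59.5 and 103 in Control (log2 fold change -2.89 ± 0.87, edgeR adjusted p = 0.0748). Both DCKO values of Ncan lay below both Control values, with a wide spread in each group. Without either DCKO library Ncan passed, at -4.89 without DCKO 1 and -2.09 without DCKO 2. Acan, which encodes the cartilage lectican aggrecan, had 34 and 27 counts in DCKO and 6 and 0 in Control, and did not pass (edgeR adjusted p = 0.0623).

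The call of Vcan was near the threshold. It was lost without Control 1 (edgeR adjusted p = 0.147), without Control 2 (0.201) and with library totals (0.0619), and the log2 fold change was 0.99 without DCKO 1. Bcan did not pass without Control 1 or Control 2 (edgeR adjusted p = 0.254 and 0.204). With library totals no lectican was called higher and Bcan and Ncan were called lower.

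Make-up of the family sets Vcan against Ncan on a scale that does not depend on library scaling. On the authors' TPM, a level per transcript length, Vcan made up 96.0% and 98.2% of the summed lectican TPM in DCKO, against 62.6% and 42.3% in Control. Ncan made up 3.67% and 1.26% in DCKO, against 35.6% and 56.1% in Control. Summed lectican TPM was 95.3 and 46.9 in DCKO and 43.5 and 39.2 in Control. Vcan and Ncan made up nearly all of the sum, so their shares mirror each other. These shares were apart between the groups, while the sum in DCKO 2 was close to Control.

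**Figure D2:**
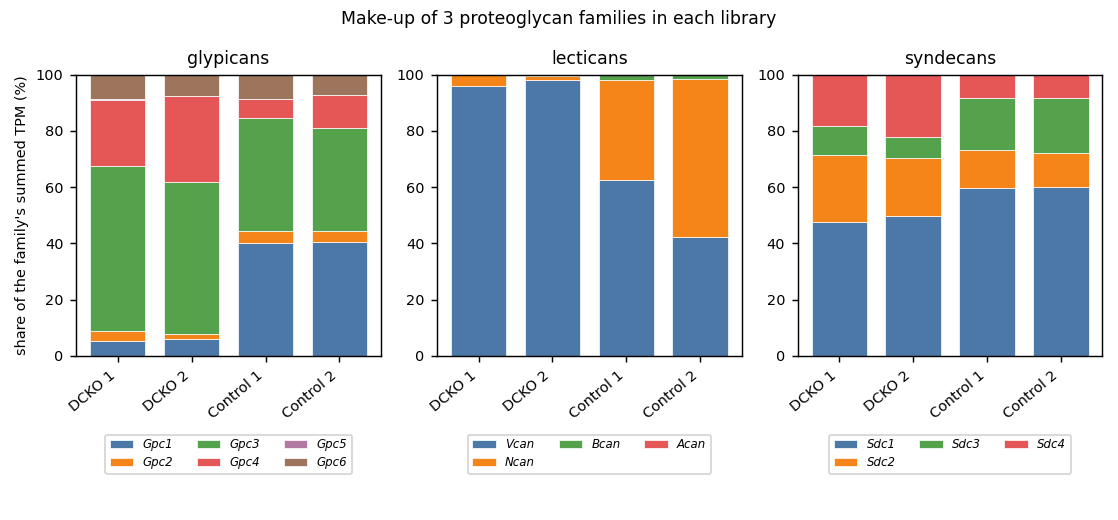
Share of each gene in the summed TPM of its family, in percent, for glypicans, lecticans and syndecans; 1 bar per library, with segments in the colours of the legend. Gpc1 made up 5.21% and 5.80% of glypican TPM in the DCKO bars, against 40.1% and 40.3% in the Control bars, and Vcan nearly all of lectican TPM in DCKO.

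Among the 12 cell surface proteoglycans, 7 were higher and 2 were lower. Glypicans are held at the membrane by a lipid anchor and carry heparan sulfate near the surface, where they bind morphogens. Gpc3, mutated in human Simpson-Golabi-Behmel overgrowth syndrome, stood at 459 and 432 CPM in DCKO, against 102 and 103 in Control (chrX:52272426-52613950, minus strand; log2 fold change 2.12 ± 0.15 SE, edgeR adjusted p = 0.00602). Gpc4, the neighbour of Gpc3 on the X chromosome, stood at 222 and 294 CPM in DCKO, against 21.1 and 38.1 in Control (chrX:52053021-52165252, minus strand; log2 fold change 3.12 ± 0.34, edgeR adjusted p = 0.00943). In both genes the DCKO libraries were close to each other and far above Control. Gpc6 stood at 88.5 and 71.1 CPM in DCKO, against 32.6 and 23.4 in Control (log2 fold change 1.51 ± 0.23, edgeR adjusted p = 0.0176). Gpc5 had 28 and 40 counts in DCKO and 11 and 4 in Control (log2 fold change 2.76 ± 0.66, edgeR adjusted p = 0.0458), and at this depth passed the count filter only through DCKO.

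Gpc1 was the glypican that fell. It stood at 73.2 and 84.5 CPM in DCKO, against 189 and 208 in Control, 2.52-fold lower (chr1:92831645-92860779, plus strand; log2 fold change -1.33 ± 0.17 SE, edgeR adjusted p = 0.0121). The groups did not overlap and the libraries of each were close together. Ankmy1 on the opposite strand overlaps Gpc1 and had 226 and 328 counts in DCKO, against 1323 and 1347 in Control, and Gpc1 itself 2927 and 3121 counts in DCKO, against 11859 and 10525 in Control. Gpc2, a glypican of developing neurons, had 23.5 and 15.9 CPM in DCKO and 10.7 and 14.3 in Control (edgeR adjusted p = 0.154; 0.0356 without DCKO 2). Its counts are uncertain because Gm43720, a gene model that spans it on the same strand, had 82 and 24 counts in DCKO and 1070 and 781 in Control.

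As shares of glypican TPM, Gpc1 made up 5.21% and 5.80% in DCKO and 40.1% and 40.3% in Control. Gpc3 made up 58.5% and 53.9% in DCKO, against 40.3% and 36.9% in Control. Gpc4 made up 23.6% and 30.5% in DCKO, against 6.95% and 11.4% in Control. In Control Gpc1 and Gpc3 were thus near equal, and in DCKO Gpc1 was behind Gpc3, Gpc4 and Gpc6. The share of Gpc6 overlapped between the groups (8.83% and 7.53% in DCKO, 8.54% and 7.42% in Control). Summed glypican TPM was 467 and 564 in DCKO and 215 and 193 in Control.

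Syndecans span the membrane and carry heparan sulfate beside integrins, and 2 of 4 were higher. Sdc4, the syndecan of focal adhesions, stood at 52.4 and 63.7 CPM in DCKO, against 15.2 and 14.1 in Control (log2 fold change 1.99 ± 0.18, edgeR adjusted p = 0.00764). Sdc2, a syndecan of mesenchymal cells, stood at 100 and 85.6 CPM in DCKO, against 35.6 and 29.1 in Control (log2 fold change 1.52 ± 0.19, edgeR adjusted p = 0.0119). Both rose by more than the spread between embryos. The epithelial syndecan Sdc1 was at 157 and 156 CPM in DCKO and 121 and 113 in Control (log2 fold change 0.42 ± 0.15, edgeR adjusted p = 0.109). Sdc3, the neural syndecan, was at 55.9 and 40.9 CPM in DCKO and 65.0 and 66.2 in Control (log2 fold change -0.44 ± 0.20, edgeR adjusted p = 0.180). Neither passed with all 4 libraries, although their groups did not overlap; Sdc3 passed as lower without DCKO 1 (edgeR adjusted p = 0.0426) and with library totals (0.0410). Sdc1 was the largest share of syndecan TPM in both groups, at 47.5% and 49.7% in DCKO and 59.59% and 59.99% in Control, and Sdc4 made up 18.2% and 22.1% in DCKO, against 8.38% and 8.34% in Control.

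Cspg4, which encodes NG2, a chondroitin sulfate proteoglycan of pericytes and oligodendrocyte precursors, stood at 9.35 and 4.60 CPM in DCKO, against 1.63 and 2.19 in Control (log2 fold change 1.87 ± 0.45, edgeR adjusted p = 0.0453). Cspg5, which encodes the neural proteoglycan neuroglycan C, stood at 5.40 and 4.30 CPM in DCKO, against 10.9 and 15.9 in Control (log2 fold change -1.46 ± 0.29, edgeR adjusted p = 0.0297). Cspg4 was thus higher and Cspg5 lower, and in neither gene did the groups overlap. Among cell surface genes, Gpc1, Gpc5, Gpc6, Sdc2, Cspg4 and Cspg5 did not pass without Control 1 (edgeR adjusted p between 0.0573 and 0.231) or without Control 2 (between 0.0795 and 0.257), and Sdc4 did not pass without Control 2 (0.0558). Cspg4 also did not pass without DCKO 1 (edgeR adjusted p = 0.0519, log2 fold change 1.26) or with library totals (0.0563), and Gpc5 did not pass without DCKO 2 (0.0883) and stood at 3.44 without Control 1.

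**Figure D3:**
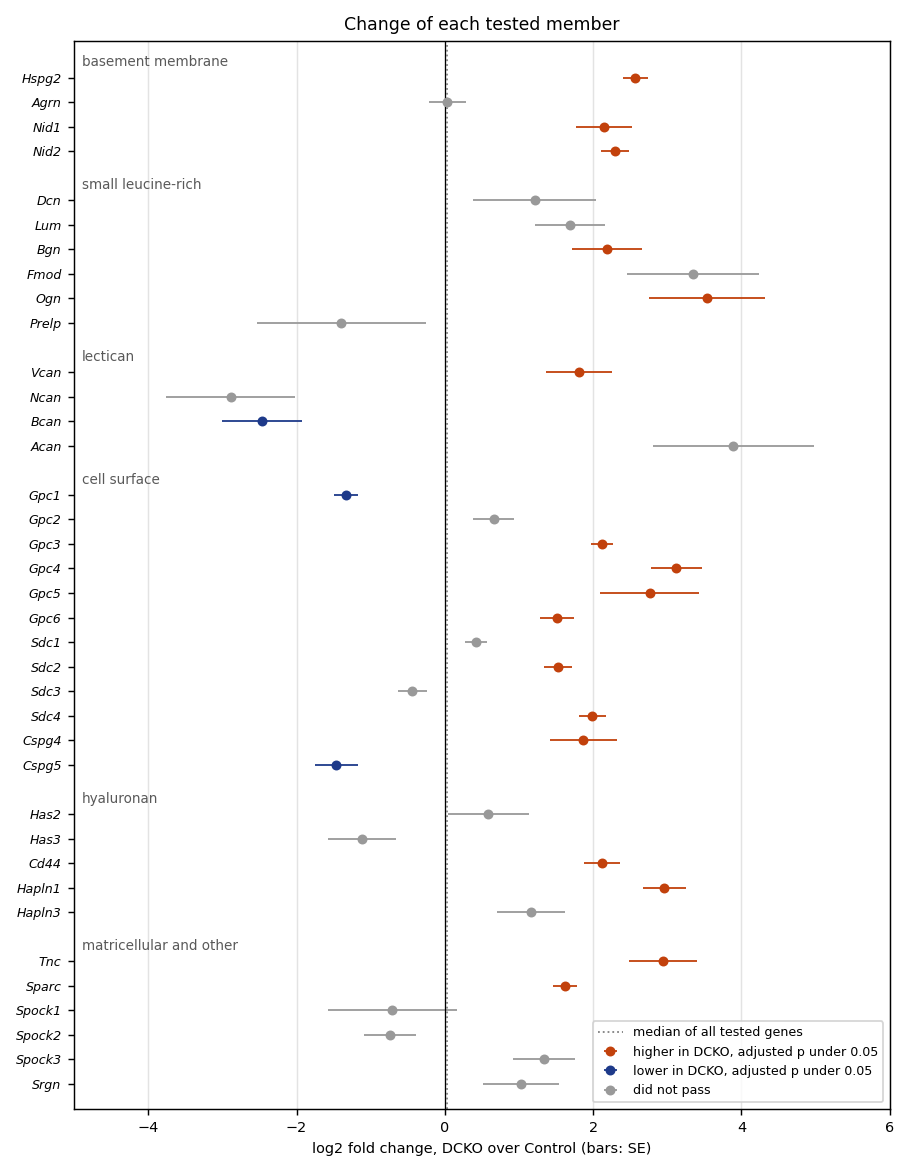
Log2 fold change of each tested gene, DCKO over Control, with bars for the SE, coloured by the edgeR call at an adjusted p under 0.05 (17 higher, 3 lower, 17 that did not pass). Hspg2, Gpc3, Sdc4 and Sparc have short bars, and Fmod, Ncan, Acan, Prelp and Spock1 have long ones.

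Hyaluronan is a sugar chain with no core protein, made at the plasma membrane by the HAS synthases. The synthase genes were not called, while a receptor and a link protein were higher. Hapln1 encodes a link protein that fastens lecticans to hyaluronan (chr13:89539796-89611652, plus strand). It stood at 153 and 224 CPM in DCKO, against 28.7 and 19.8 in Control, a log2 fold change of 2.96 ± 0.29 (SE; edgeR adjusted p = 0.00806). Cd44, the main hyaluronan receptor of many cells, stood at 32.7 and 23.5 CPM in DCKO, against 6.79 and 6.17 in Control (log2 fold change 2.12 ± 0.24, edgeR adjusted p = 0.0101). Both DCKO embryos exceeded both Control embryos by several fold for each gene. Without Control 1 or Control 2, Cd44 did not pass (edgeR adjusted p = 0.0605 and 0.0750).

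Has2, the principal synthase of the embryo, was at 5.42 and 12.1 CPM in DCKO and 8.11 and 3.56 in Control, and its groups overlapped (edgeR adjusted p = 0.485). Has3 was at 0.650 and 1.03 CPM in DCKO and 1.57 and 2.09 in Control (edgeR adjusted p = 0.146). It overlaps Chtf8 on the opposite strand, which had 3099 and 3930 counts in DCKO and 11658 and 9157 in Control. Hapln3 was at 10.8 and 4.71 CPM in DCKO and 3.93 and 2.98 in Control (log2 fold change 1.16 ± 0.46, edgeR adjusted p = 0.135; 1.64 and 0.0126 without DCKO 2). Both DCKO values of Has3 lay below both Control values. Has1, named although outside the rule for naming genes, had 3 and 17 counts in DCKO and 38 and 47 in Control. It was not called (edgeR adjusted p = 0.262) and passed the filter on low counts only through Control. No synthase gene thus passed at this number of embryos.

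Matricellular proteins sit in the matrix and act on cells rather than as scaffolding, and Tnc and Sparc were higher. Sparc encodes the collagen-binding protein osteonectin (chr11:55394500-55423183, minus strand). It stood at 547 and 542 CPM in DCKO, against 165 and 188 in Control, a log2 fold change of 1.62 ± 0.16 (SE; edgeR adjusted p = 0.00806). Tnc encodes tenascin-C, a glycoprotein of migrating neural crest and tendon, and stood at 41.7 and 17.02 CPM in DCKO, against 3.90 and 3.73 in Control (log2 fold change 2.94 ± 0.46, edgeR adjusted p = 0.0179). Sparc was near equal in the DCKO embryos, whereas Tnc was well above its DCKO 2 level in DCKO 1. Without Control 1 or Control 2 neither passed (edgeR adjusted p = 0.0591 and 0.0528 for Sparc, 0.0858 and 0.0946 for Tnc), and Tnc stood at 2.15 without DCKO 1.

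The testicans Spock1, Spock2 and Spock3, heparan sulfate proteoglycans of the SPARC family, were not called. Spock1 stood apart within its own group, at 11.3 and 1.35 CPM in DCKO and 11.0 and 9.78 in Control (edgeR adjusted p = 0.597). Spock2 was at 24.7 and 12.6 CPM in DCKO and 34.7 and 27.6 in Control (edgeR adjusted p = 0.189). Spock3 was at 5.20 and 3.11 CPM in DCKO and 1.37 and 1.92 in Control (log2 fold change 1.34 ± 0.42, edgeR adjusted p = 0.0830; 0.0241 without DCKO 2). Without DCKO 1, Spock1 and Spock2 passed as lower (log2 fold changes of -2.95 and -1.32, edgeR adjusted p = 0.00247 and 0.0118). Srgn, a proteoglycan of the granules of blood cells, had 69 and 35 counts in DCKO and 35 and 38 in Control (edgeR adjusted p = 0.211).

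By level per transcript length, Sparc ranked 1 of the 38 genes in both groups, with a mean of 422 ± 38.7 TPM in DCKO and 148 ± 0.928 TPM in Control (SD, n = 2 each). Gpc1 ranked 16 in DCKO and 2 in Control, with means of 28.5 ± 5.93 TPM in DCKO and 82.1 ± 5.75 TPM in Control. Gpc4 ranked 3 in DCKO and 9 in Control, at 141 ± 44.0 TPM in DCKO and 18.5 ± 5.04 TPM in Control. Hapln1 ranked 10 in DCKO and 20 in Control, at 48.4 ± 18.2 TPM in DCKO and 7.37 ± 2.89 TPM in Control. The groups thus share their most abundant gene and differ in the order below it.

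Several of these genes lie side by side in the genome (GENCODE M21, GRCm38). Hapln1 and Vcan, a link protein gene and its lectican partner, lie 43.7 kb apart on chromosome 13 with no protein-coding gene between them, and both were higher in DCKO. Gpc4 and Gpc3 lie 107.2 kb apart on the X chromosome, and Gpc5 and Gpc6 lie 400.1 kb apart on chromosome 14. Gpc3 and Gpc4 were higher in DCKO. The calls of Gpc5 and Gpc6 were both lost without Control 1 and without Control 2, and that of Gpc5, which rested on 28 and 40 counts in DCKO, against 11 and 4 in Control, also without DCKO 2. Acan and Hapln3, another lectican and link protein pair, lie 2 bases apart at their 3′ ends on chromosome 7, with log2 fold changes of 3.89 and 1.16, and neither passed. On chromosome 8, Ncan lies 2.2 kb from Hapln4, with log2 fold changes of -2.89 and -1.01, and neither passed. Prelp and Fmod on chromosome 1 gave -1.40 and 3.34 on the log2 scale, and neither passed. 

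The DCKO embryos were not alike for these genes. DCKO 1 was over 1.5 times DCKO 2 in 16 of the 37 tested members (43.2%), against 17% of all tested genes, and the reverse held in 3 (8.11%), against 17.6%. The difference was most frequent in the small leucine-rich and the matricellular classes, with 5 of 6 tested genes each. Summed small leucine-rich CPM was 340 and 121 in DCKO and 53.0 and 57.1 in Control, and summed lectican CPM was 622 and 245 in DCKO and 198 and 209 in Control. Cell surface genes did not share this spread, at 1247 and 1253 summed CPM in DCKO and 605 and 628 in Control. Hyaluronan genes were at 203 and 265 in DCKO and 49.1 and 34.6 in Control, basement membrane genes at 1250 and 1032 in DCKO and 328 and 346 in Control, and matricellular genes at 632 and 577 in DCKO and 217 and 232 in Control.

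Markers of cell types around the neural tube moved with these genes, and their part in the result was not tested. For comparison with the counts below, 8.93% of all tested genes were higher in DCKO and 8.11% were lower. Cranial mesenchyme markers were higher in 12 of 16 tested, with a summed level of 4543 and 2180 CPM in DCKO and 683 and 734 in Control. Without 3 collagen genes the sums were 551 and 543 in DCKO and 169 and 179 in Control. The spread between DCKO 1 and DCKO 2 in the summed level was thus carried by Col1a1, Col1a2 and Col3a1. Single mesenchyme markers outside these genes also differed between the DCKO libraries, in opposite directions that offset each other in the sum. Pdgfra stood at 164 CPM in DCKO 1 and 93.2 in DCKO 2. Foxc2 stood at 14.7 and 26.4 CPM in the same libraries, and Alx1 at 11.0 and 19.9. Endothelial markers were higher in 10 of 14 (1007 and 596 CPM in DCKO, 231 and 217 in Control), and pericyte and mural markers were higher in 6 and lower in 1 of 10 tested (699 and 876 in DCKO, 292 and 275 in Control). Surface ectoderm markers were higher in 9 of 12 tested (299 and 305 in DCKO, 30.1 and 47.5 in Control), and 3 of these 9, Trp63, Wnt6 and Cldn6, passed the filter on low counts only through DCKO. Krt5 had 36 and 0 counts in DCKO and 0 in both Control libraries, Krt14 had 0 and 13 in DCKO and 0 in both Control libraries, and neither was tested. Cartilage markers were higher in 4 of 7 tested (733 and 603 in DCKO, 288 and 250 in Control). These were Col2a1 (2.11-fold), Col9a1 (4.79-fold), Col11a1 (3.84-fold) and Matn3 (4.89-fold), and the 4 listed markers that were not tested, Matn1, Comp, Snorc and Ucma, were at 0 in all 4 libraries. These counts too leaned on both Control libraries: without Control 1 or Control 2, edgeR called 0 and 2 mesenchyme, 1 and 0 endothelial, 3 and 1 pericyte and mural, 7 and 5 surface ectoderm, and 1 and 0 cartilage markers higher.

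In the opposite direction, neural progenitor markers were lower in 9 of 11 (970 and 808 CPM in DCKO, 2514 and 2849 in Control) and neuron markers in 3 of 12 (1040 and 406 in DCKO, 1456 and 1792 in Control). Of all tested genes, 8.11% were lower. Ncan, Bcan and Cspg5 are known chiefly from neural cells, and the part of these lists in their values was not tested. Erythroid markers were lower in 8 of 12 (909 and 665 in DCKO, 2591 and 3839 in Control). Of 12 macrophage markers 0 were called by edgeR and 0 had an unadjusted p under 0.05 (89.7 and 26.7 in DCKO, 32.1 and 43.6 in Control), and 1 of 6 tested neural crest and Schwann precursor markers was higher (64.3 and 183 in DCKO, 67.6 and 66.6 in Control). Fewer neural progenitor, neuron and erythroid markers were called lower by edgeR without Control 1 or without Control 2. The median log2 fold change of tested neuron markers was -1.34 with all libraries, -2.03 without DCKO 1 and -0.75 without DCKO 2. For neural crest and Schwann precursor markers it was 1.66, 3.70 (7 tested) and -0.20 in the same order. For macrophage markers it was 0.60, -0.59 and 1.16. The DCKO side of each of the last 2 fits is 1 embryo.

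**Figure D4:**
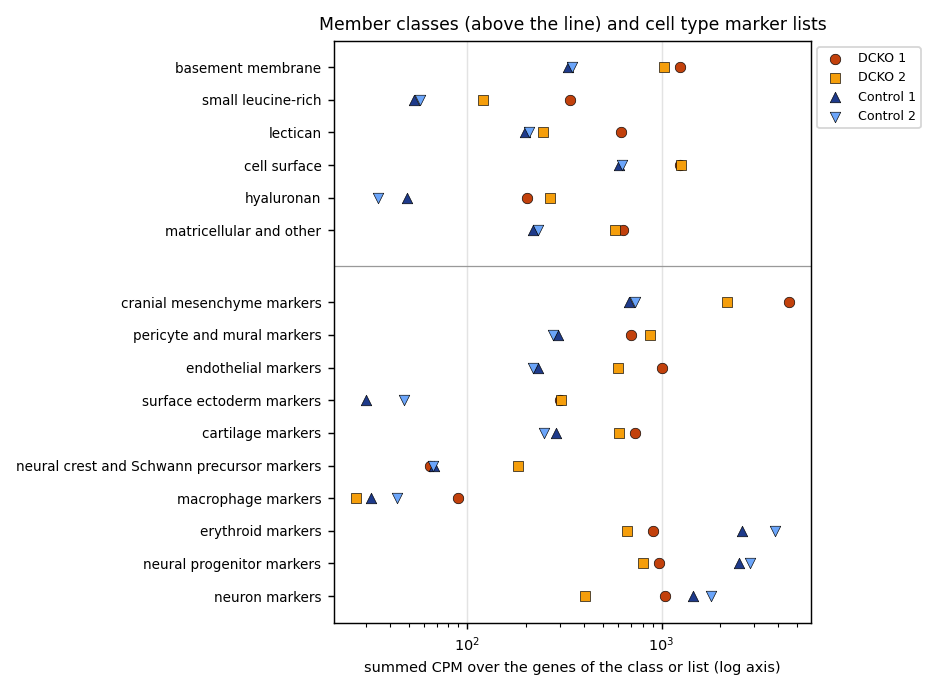
Summed TMM-scaled CPM on a log axis, for the 6 classes (above the line) and for marker lists of 10 cell types (below it), with 1 symbol per library. The DCKO symbols lie to the right for all 6 classes and for the mesenchyme, endothelial and surface ectoderm lists, and to the left for the erythroid, neural progenitor and neuron lists.

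Embryo sex could also differ between the groups. For Xist, which is transcribed from the silenced X of female cells, there were 8 and 22 counts in DCKO and 10837 and 7786 in Control. Xist split the libraries by group, so embryo sex and genotype cannot be told apart for any gene described here, X-linked or not. Gpc3, Gpc4 and Bgn are the X-linked members. Over 602 X-linked tested genes, 53 were higher and 38 lower, and the median was 0.06 on the log2 scale, against 0.02 over the other tested genes.

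Enzymes that build, edit and break down the sugar chains, with related core proteins, were compared between the same libraries. From lists of 103 genes, 101 were in the table and 86 were tested, of which 20 were higher and 7 lower in DCKO (31.4% called, against 17% of all tested genes). The share was 55.6% among related core proteins, 44.4% for precursor supply and 33.3% for hyaluronan turnover and binding. The chain-building lists were near or under the 17% of all tested genes, at 16.7% for the linker, 15% for heparan sulfate and 13.3% for chondroitin and dermatan sulfate. In the list for heparan sulfate removal, 2 of 3 tested genes were called. The median of all 86 genes stood at 0.38 on the log2 scale. With library totals the split was 12 higher and 15 lower. Without Control 1 it was 4 and 2, and without Control 2 it was 2 and 1. Xylt1, Sulf1, Sulf2, Chst11, Ugdh and Papss1, described next, were among those not called with library totals (edgeR adjusted p between 0.0549 and 0.116), where 6 genes for building heparan sulfate were lower.

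Among 6 genes for the linker that joins a chain to its core protein, Xylt1, a xylosyltransferase that starts the chain, was higher (31.5 and 43.0 CPM in DCKO, 18.8 and 18.8 in Control). Of 20 tested genes for building heparan sulfate, 2 were higher and 1 was lower, a share of 15% that is not above the 17% of all tested genes. Hs6st2, which adds sulfate at the 6-O position and lies 371.2 kb from Gpc4 on the X chromosome, stood at 38.6 and 47.4 CPM in DCKO, against 9.98 and 10.8 in Control (log2 fold change 2.05 ± 0.19, edgeR adjusted p = 0.00788). Ndst1, which removes acetyl groups and adds N-sulfate, stood at 46.7 and 47.3 CPM in DCKO, against 118 and 110 in Control (log2 fold change -1.28 ± 0.15, edgeR adjusted p = 0.0112). Extl1 was higher from a low level (2.00 and 4.68 CPM in DCKO, 0.160 and 0.158 in Control), and it passed the filter on low counts only through its DCKO libraries. The extracellular sulfatases Sulf1 and Sulf2, which remove 6-O sulfate, were both higher, at 266 and 250 CPM in DCKO for Sulf1, against 152 and 107 in Control, and at 302 and 219 CPM in DCKO for Sulf2, against 147 and 135 in Control. Of the other 6-O sulfotransferase genes, Hs6st1 was not called (log2 fold change -0.11, edgeR adjusted p = 0.773) and Hs6st3 was not tested; both are named beside Hs6st2 although outside the rule for naming genes.

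Of 15 tested genes for chondroitin and dermatan sulfate, the 4-O sulfotransferase Chst11 was higher (22.0 and 20.9 CPM in DCKO, 11.2 and 10.04 in Control) and Chst15 was lower (23.1 and 20.9 in DCKO, 40.2 and 44.1 in Control). These 2 calls are 13.3% of that list, a share not above that of all tested genes. Among 9 genes for precursor supply, Papss2, Ugdh and Papss1 were higher and Slc35b2, named although outside the rule for naming genes, was lower. Papss1 and Papss2 make the sulfate donor, and Papss2 stood at 5.40 and 4.68 CPM in DCKO, against 0.639 and 0.830 in Control. Ugdh, which makes the glucuronate precursor, stood at 58.2 and 70.6 CPM in DCKO, against 33.7 and 33.3 in Control.

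Of 15 tested genes for turnover and binding of hyaluronan, 4 were higher and 1 was lower, and the called genes included both CEMIP relatives, in opposite directions. Cemip, needed for hyaluronan breakdown in human fibroblasts, stood at 27.4 and 22.0 CPM in DCKO, against 0.128 and 0.929 in Control (log2 fold change 5.58 ± 0.83, edgeR adjusted p = 0.0169). Its Control libraries alone would not have passed the filter on low counts. Cemip2, a cell surface relative, stood at 55.9 and 66.3 CPM in DCKO, against 241 and 202 in Control (log2 fold change -1.86 ± 0.19, edgeR adjusted p = 0.00806). Both calls held whichever library was left out, with Cemip at 4.72 without Control 1 and 7.53 without Control 2. Stab1, a scavenger receptor for hyaluronan on sinusoidal endothelium and macrophages, was also higher (44.9 and 61.9 CPM in DCKO, 15.4 and 18.7 in Control).

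Among 18 tested related core proteins and matrix relatives, 7 were higher and 3 were lower. Postn, which encodes the matricellular protein periostin, stood at 31.2 and 47.1 CPM in DCKO, against 4.66 and 3.02 in Control (log2 fold change 3.35 ± 0.34, edgeR adjusted p = 0.00806). Bcam, a laminin receptor, stood at 94.6 and 154 CPM in DCKO, against 17.2 and 11.7 in Control (log2 fold change 3.11 ± 0.33, edgeR adjusted p = 0.00925). Col18a1, whose product is a heparan sulfate collagen of basement membranes, stood at 802 and 629 CPM in DCKO, against 246 and 214 in Control (log2 fold change 1.64 ± 0.20, edgeR adjusted p = 0.0111). The 3 lower genes, named after their values were seen, were the BMP antagonist Smoc1 (14.6 and 9.04 CPM in DCKO, 50.6 and 56.3 in Control), the receptor phosphatase Ptprz1 (8.80 and 3.87 in DCKO, 18.3 and 45.4 in Control) and the lubricin gene Prg4 (0 and 0.0541 in DCKO, 2.06 and 1.88 in Control). Prg4, with 0 and 2 counts in DCKO, passed the filter on low counts only through its Control libraries. Of the genes named in these lists, Cemip, Cemip2 and Postn were called whichever library was left out. Bcam and Smoc1 were not called without Control 2 (edgeR adjusted p = 0.0504 and 0.0609), and every other named gene that had been called was not called without Control 1 and not without Control 2. Slc35b2 and Sulf2 were also not called without DCKO 1 (edgeR adjusted p = 0.0540 and 0.0541), nor Ptprz1 without DCKO 2 (0.0547).

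**Figure D5:**
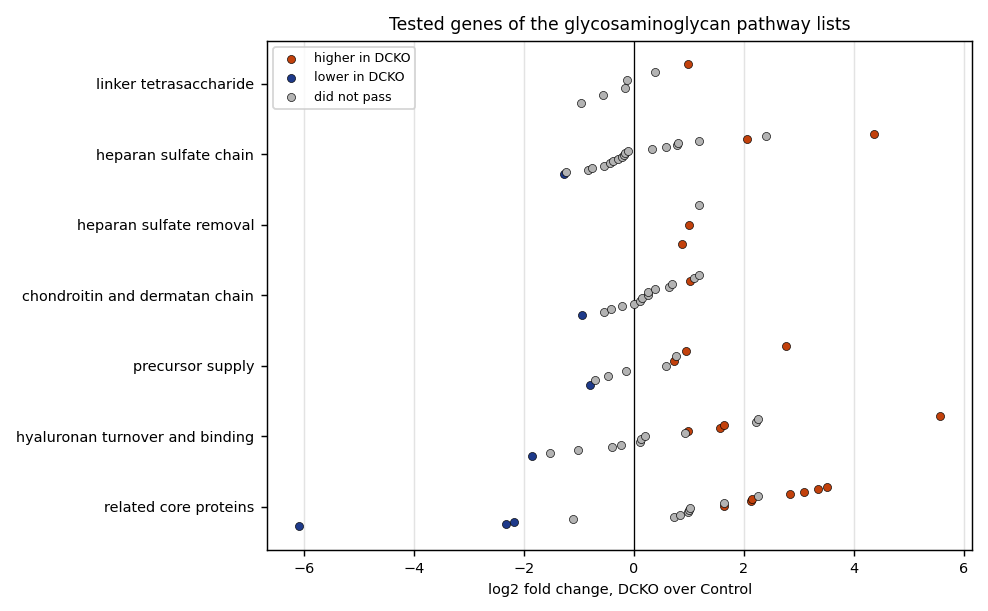
Log2 fold change, DCKO over Control, of the 86 tested genes of 7 lists of glycosaminoglycan enzymes, carriers, receptors and related core proteins; 1 point per gene, coloured by the edgeR call. Most points of the chain-building lists lie near 0, Cemip is the rightmost point at 5.58 and Prg4, a fitted value that rests on 2 counts in DCKO, is the leftmost.

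The authors' deposited table of differential expression held 31 of the 38 genes among its 12574 rows. Of these 31, 20 had a false discovery rate under 0.05 with a positive fold change and 3 with a negative one. These 3 were Ncan, Gpc1 and Cspg5. The share of all its rows under that rate is not given here, so these counts have no background to be set against. Bcan and Gpc5, both called here, were not among the 31. In the authors' deposited table, Lum (1.74 on the log2 scale), Fmod (3.39), Hapln3 (1.22) and Spock3 (1.39) passed as higher and Ncan (-2.84) as lower, all of which missed the threshold in edgeR's quasi-likelihood test here. The false discovery rate of Ncan in the authors' deposited table was 9.41e-05.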

How the data were processed

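The authors deposited read counts per Ensembl gene, TPM per gene and a table of log2 fold changes with p-values, per the file headers. Per the submitters' processing notes, TopHat2 2.1.1, StringTie, edgeR 3.16.5, limma 3.30.13 and R 3.3.2 were used with builds mm10 and GRCm38, with no roles given; whether counting used strand is not stated. The labels name polyadenylated RNA and a stranded kit, yet ribosomal RNA was abundant in the counts. In the authors' deposited table, the sign of the log2 fold change is positive where DCKO is higher.

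Counts were tested with edgeR 4.0.16 (R 4.3.3) after filterByExpr (minimum count 10, minimum total 15), with TMM scaling and group as the only term, which leaves 2 residual degrees of freedom. Symbols came from GENCODE M21; 54409 of 54532 gene IDs matched. The newer name Bpnt2 and the older name Tmem2 in the lists found no match. Each SE was taken from the size of the log2 fold change over the square root of its F value. Alternatives were DESeq2 1.42.0, limma-voom and limma 3.58.1 on log2(TPM + 1) or log2(TPM + 0.1), with and without a minimum mean of 1 TPM, other scalings, no count filter, a replicate block, and leaving out each library; the bias-adjusted deviance of edgeR was chosen after seeing the data. Counting floors cover counting error only. The procedure was tested on simulated data. The members and the lists were chosen with earlier results of these data known. All members were named by class, as were up to 3 called genes of smallest p in each pathway list; genes named outside this rule are marked in the text.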

Additional observations from a re-analysis of the deposited data

How the results depend on the processing

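Against 17 members higher, 3 lower, a median log2 fold change of 1.52, and 20 pathway genes higher and 7 lower, these settings moved a value. With library totals 5 members were lower, and 12 pathway genes were higher and 15 lower. On log2(TPM + 1) without a filter no member and no pathway gene passed in limma (0 higher and 0 lower in each, of 30682 genes tested, 6446 of them at an unadjusted p under 0.05) and the members' median was 0.77; with a minimum mean of 1 TPM 11 pathway genes were higher with either pseudocount. Replicate numbers did not pair the libraries (correlation of deviations -0.08 over 19207 genes); with the replicate block 1 member and 4 pathway genes were lower, and 15 members and 14 pathway genes higher. Leaving out 1 library at a time gave 6 to 22 members higher, 0 to 7 lower, a median of 1.02 to 1.66, and 2 to 28 pathway genes higher and 1 to 10 lower. The causes were not tested.

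The fold change of Agrn turned to -0.31 with library totals, -0.015 with DESeq2, and -0.17 and -0.18 on TPM with pseudocounts of 1 and 0.1. Leaving out 1 library at a time turned Agrn (-0.33 to 0.32), Dcn (-0.59 to 1.98), Prelp (-2.30 to 0.83), Has2 (-0.11 to 1.29) and Spock1 (-2.95 to 0.12); none of these 5 was called with all libraries. DESeq2 called 21 members higher and 3 lower, adding Lum, Fmod, Acan and Spock3, and limma-voom 18 and 4, adding Acan and Ncan. Both also called more of all tested genes than the main fit, which called 1716 higher and 1558 lower of 19207. DESeq2 called 2368 higher and 2672 lower of 20413, and limma-voom 1811 and 1730 of 19207. In DESeq2, limma-voom, the DESeq2 and upper quartile scalings, the unfiltered counts and the fit without ribosomal cluster, erythroid and mitochondrial genes, all 20 called members were called. Shares computed from counts in place of TPM moved by more than the spread between libraries in 7 of 28 cases. Low counts limit the precision of Aspn, Prelp, Bcan, Acan and Gpc5.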
